A study of Saccharomyces cerevisiae with 8 samples.

Results

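Yeast cultures without the helicase Dbp3 were set directly against cultures in which the gene of the helicase Prp43 had been switched off, site by site over the annotated ribose methylations of the ribosomal RNA. The 4 libraries compared are Delta_Dbp3 replicates A and B and PRP43_Glu replicates A and B, out of 8 in the series. They were chosen by their labels, with earlier results of these data known. The comparison covers 55 annotated sites, of which 18S rRNA holds 18 and 25S rRNA 37. The series asks how RNA helicases bear on snoRNA complexes on pre-ribosomes and on rRNA 2'-O-methylation. Delta_Dbp3 is a strain labelled as a deletion of DBP3. PRP43_Glu is a strain in which the GAL promoter drives PRP43, sampled in medium labelled Glu, where that promoter is repressed. The other 4 libraries are the controls of each group: a wild type (WT) for Delta_Dbp3 and the same GAL-driven strain in medium labelled Gal (PRP43_Gal) for PRP43_Glu. All were whole cell RNA of exponentially growing cultures of Saccharomyces cerevisiae. The labels name rich medium with glucose or galactose, or synthetic medium without leucine, and the sources used here do not say which of these the Delta_Dbp3 and WT cultures grew in, what other alleles each strain carries or how long PRP43_Glu was in glucose. How much Prp43 the cells in glucose still held was not analysed here, nor was any level of Dbp3.

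Ribose methylation of rRNA is mostly placed by box C/D snoRNAs, which base-pair with the pre-rRNA so that the bound enzyme Nop1 methylates 1 defined nucleotide. RNA helicases use ATP to open RNA duplexes and to strip proteins from RNA. Dbp3 belongs to the DEAD-box family and acts in ribosome assembly. Prp43, of the DEAH-box family, acts in ribosome assembly and also takes apart spliceosomes after splicing.

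Methylation was read from alkaline cleavage. A 2'-O-methyl group protects the neighbouring bond, so few fragments begin or end at a methylated nucleotide. The deposited score is 1 minus the read ends at the nucleotide over those expected from 6 neighbours on each side, with values below 0 set to 0. At an annotated site a score near 1 is read as nearly all molecules methylated. Nucleotides with no annotated methylation can score high too, such as C1787 of 18S with 0.954 and 0.880 in Delta_Dbp3 A and B. The score is an average over all rRNA molecules of a culture, so some unmethylated molecules cannot be told apart from some cells with unmethylated rRNA. Any rRNA made before the shut-off counts too. The series states biological duplicates.

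The 2 groups share their 2 library barcodes, but not by letter. Barcode 1 is carried by Delta_Dbp3 A and PRP43_Glu B, and barcode 2 by Delta_Dbp3 B and PRP43_Glu A. The 4 control libraries each carry a barcode of their own. Depth, as read ends on both rRNAs, was 11253781 and 9717799 in Delta_Dbp3 A and B, and 5557319 and 7045005 in PRP43_Glu A and B. Counting alone gave a median standard error of the score of 0.00867 in Delta_Dbp3 and 0.0129 in PRP43_Glu. The median gap between duplicates was 0.0262 and 0.0253, with gaps over 0.1 at 10 and 11 sites. The spread between duplicates was thus larger than counting error.

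The rRNA around the sites on which the comparison turns is shown here 5′ to 3′, as the deposited tables give it, with every annotated methylated nucleotide in capitals. The genes lie on chromosome XII, and positions are those of the mature 18S or 25S rRNA in the tables. The first 3 windows hold sites that were far lower in PRP43_Glu.
Cm1007 (18S, 997 to 1017): gaucagauacCgucguagucu
Um1888 (25S, 1878 to 1898): gauagaauaaUguagauaagg
Gm1572 (18S, 1562 to 1582): gcucuucaacGaggaauuccu
The next 3 hold sites that were lower in Delta_Dbp3, Um1269 with Gm1271 beside it and Gm908 with Um898 at the start.
Um1269 (18S, 1259 to 1279): uuguggguggUgGugcauggc
Gm908 (25S, 898 to 918): UuggguauagGggcgaaagac
Cm2197 (25S, 2187 to 2207): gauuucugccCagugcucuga
In the following 2 windows neighbouring sites went opposite ways. The first holds Gm805, Am807 and Am817, and the second Um2724 and Um2729.
Gm805 to Am817 (25S, 797 to 825): ugggacccGaAagauggugaAcuaugccu
Um2724 to Um2729 (25S, 2716 to 2737): uuuugauuUucagUgugaauac
The last 2 hold a site with a low score in both groups, Cm2948 after Am2946, and a site whose score followed the barcode, Um2421 after Um2417.
Cm2948 (25S, 2938 to 2958): ggaacgugAgCuggguuuaga
Um2421 (25S, 2411 to 2431): ugagcuUgacUcuaguuugac

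Cultures with PRP43 shut off were less methylated than cultures without Dbp3 at most sites where the groups differed, and a short list of sites went the other way. Of the 55 sites, 32 differed (58.2% of those tested; limma's moderated test, adjusted p of 0.05), 27 higher in Delta_Dbp3 (49.1%) and 5 lower (9.09%). Among sites that passed, the largest differences were at Cm1007, Gm1572 and Um1888, where Delta_Dbp3 stayed near full methylation, and in the other direction at Um1269 and Gm908. Over all 55 sites the median score was 0.913 in Delta_Dbp3 and 0.819 in PRP43_Glu, and the median difference was 0.0707. By library, the median was 0.903 and 0.913 in Delta_Dbp3 A and B and 0.817 and 0.806 in PRP43_Glu A and B. Scores above 0.9 were found at 28 and 30 sites in Delta_Dbp3 A and B, and at 17 and 15 in PRP43_Glu A and B.

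Both Delta_Dbp3 libraries lay above both PRP43_Glu libraries at 37 sites (67.3%) and below both at 8 (14.5%), so the groups did not overlap at 45 (81.8%) and overlapped at 10. All 32 called sites were among the 45. The test was 1 fit over the 8 libraries with the residual variance pooled over groups. An exact two-sided permutation test of 2 libraries against 2 cannot go below 0.333, so the calls rest on that model. With the barcode as a block over the 4 libraries alone, 21 sites passed, 17 higher and 4 lower in Delta_Dbp3, and 19 of them were among the 32. Strain, and any difference in the authors' processing, go with the group and cannot be told apart in this comparison, nor can medium if it differed. No label names a processing set. The tables of the PRP43 strain hold 9 other RNAs beside 18S and 25S, and those of Delta_Dbp3 and WT 4 different ones. Nor does any label say whether libraries with the same barcode share a batch.

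**Figure D1:**
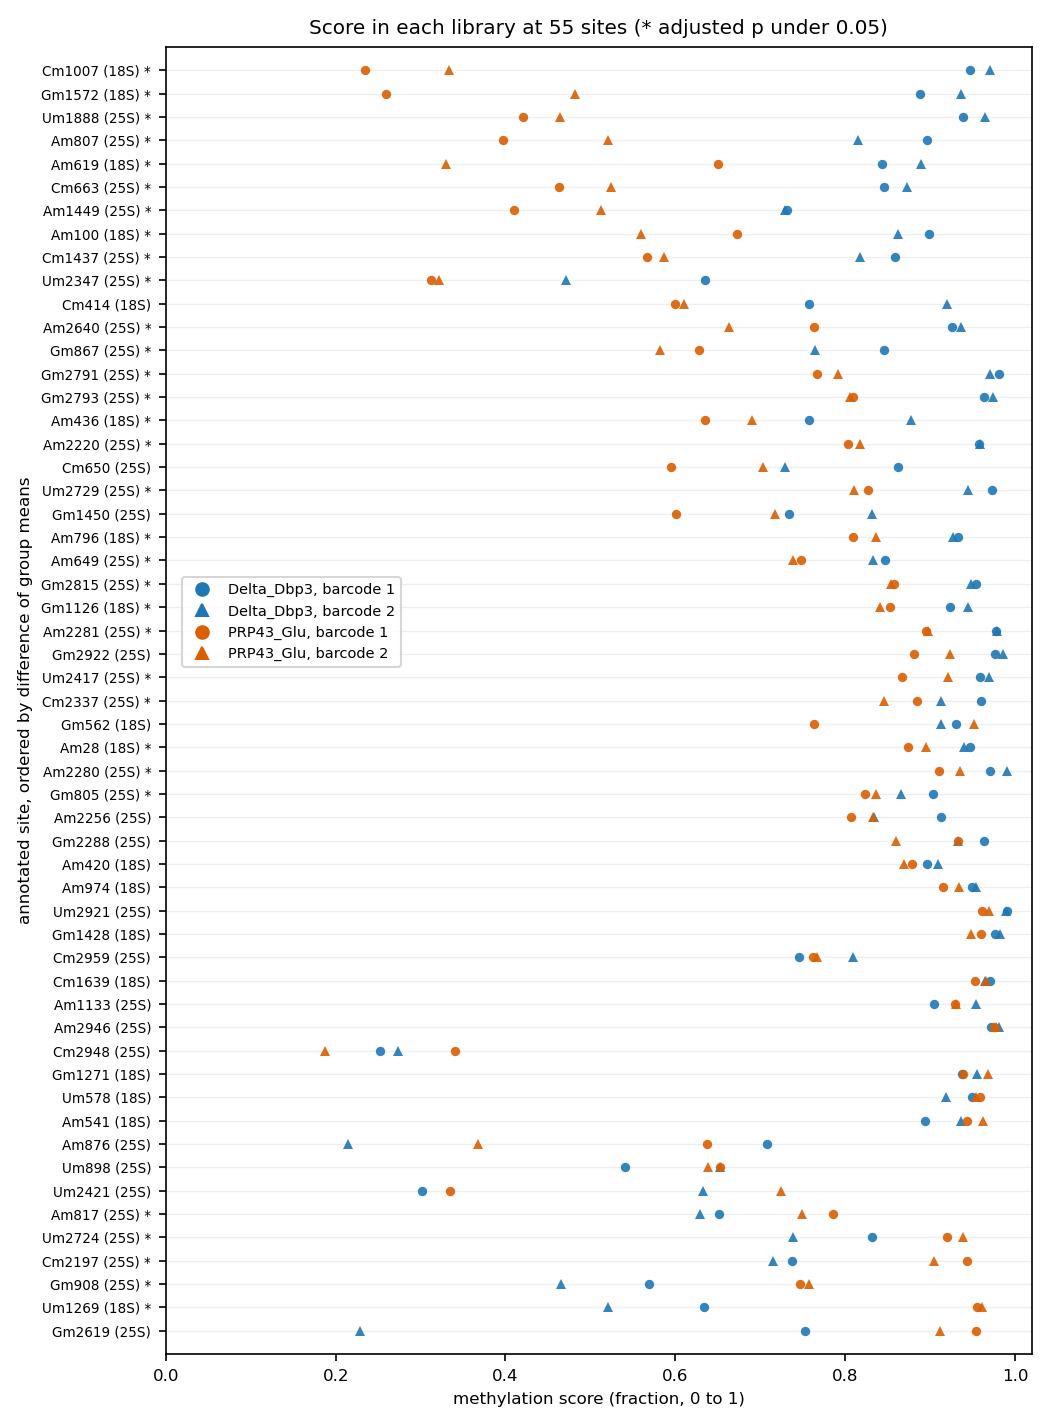
Methylation score (x axis, fraction from 0 to 1) at each of the 55 sites (y axis, ordered by the difference of the group means) in the 4 libraries. Colour gives the group and shape the barcode, and an asterisk marks the 32 sites that passed; the PRP43_Glu points lie to the left of the Delta_Dbp3 points at 37 sites and to the right at 8.

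In 18S, 8 of 18 sites were higher in Delta_Dbp3 and 1 was lower. The guides named here are general knowledge of yeast snoRNAs. At Cm1007, guided by snR79, the score was 0.947 and 0.970 in Delta_Dbp3 A and B and 0.334 and 0.235 in PRP43_Glu A and B. The difference was 0.674 ± 0.0336 (SE; adjusted p = 0.000124), the largest of the 55. Both Delta_Dbp3 libraries were nearly fully methylated here and both PRP43_Glu libraries mostly unmethylated. Gm1572, guided by snR57, had scores of 0.889 and 0.937 against 0.482 and 0.260 in the same order, a difference of 0.542 ± 0.0964 (adjusted p = 0.00658). The PRP43_Glu libraries differed by 0.222 from each other, and both were still far below Delta_Dbp3.

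Am619, a target of snR47, had 0.843 and 0.889 in Delta_Dbp3 A and B and 0.330 and 0.650 in PRP43_Glu A and B. It differed by 0.376 ± 0.104 (adjusted p = 0.0284), and the wide gap between the PRP43_Glu libraries left its size uncertain, with a 95% interval of 0.112 to 0.641. The control groups already differed there, with 0.918 ± 0.00574 in WT and 0.629 ± 0.0497 in PRP43_Gal (SD, n = 2 here and for all means below). Am100, a target of snR51, had 0.898 and 0.862 against 0.559 and 0.673, and differed by 0.264 ± 0.0489 (adjusted p = 0.00745). Am436, guided by snR87, had 0.757 and 0.877 against 0.690 and 0.635, and differed by 0.155 ± 0.0439 (adjusted p = 0.0307). Am796, guided by snR53, was tight in both groups, at 0.930 ± 0.00368 and 0.823 ± 0.0195. The 2 remaining higher sites of 18S, Am28 (0.0581) and Gm1126 (0.0870), had the smallest differences of the 8 and were named after their values were seen.

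In 25S, 19 of 37 sites were higher in Delta_Dbp3 and 4 were lower. Um1888, guided by snR62, had 0.939 and 0.965 in Delta_Dbp3 A and B and 0.464 and 0.421 in PRP43_Glu A and B. Its difference of 0.509 ± 0.0197 had the smallest adjusted p of all sites (6.78e-05). Am807, whose guides snR39 and snR59 come from introns, had 0.897 and 0.815 against 0.521 and 0.397, a difference of 0.397 ± 0.0508 (adjusted p = 0.00206). At neither site did the groups come near each other: the gap from the lower Delta_Dbp3 library to the higher PRP43_Glu library exceeded the gap between duplicates of either group.

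Cm663, guided by snR58, had 0.846 and 0.872 against 0.524 and 0.464, and differed by 0.366 ± 0.0452 (adjusted p = 0.00206). Um2347, guided by snR65, was incompletely methylated everywhere, with 0.635 and 0.472 against 0.321 and 0.313, and differed by 0.236 ± 0.0638 (adjusted p = 0.027). It is 1 of 4 called sites with a mean under 0.8 in both groups; the others are Am817, Gm908 and Am1449. Um2347 passed from neither end alone. Am2640, guided by snR68, had 0.926 and 0.936 against 0.663 and 0.763 and differed by 0.218 ± 0.0331. Gm867, guided by snR50, had 0.845 and 0.764 against 0.582 and 0.628 and differed by 0.200 ± 0.0312.

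A group of 25S sites was close to complete in Delta_Dbp3 and incomplete in PRP43_Glu. The snR48 targets Gm2791 and Gm2793 had 0.976 ± 0.00677 and 0.969 ± 0.00746 in Delta_Dbp3 against 0.779 ± 0.0169 and 0.808 ± 0.00244 in PRP43_Glu. Am2220, a target of snR47, had 0.958 ± 0.00079 against 0.810 ± 0.00962, and Um2729, a target of snR51, 0.958 ± 0.0199 against 0.819 ± 0.0117. Gm2815, guided by the intron-encoded snR38, had 0.951 ± 0.00428 against 0.856 ± 0.00247. These sites varied little between duplicates, so differences of 0.0955 (Gm2815) to 0.197 (Gm2791) passed. In all, 13 sites were above 0.9 in both Delta_Dbp3 libraries and below 0.9 in both PRP43_Glu libraries, and all 13 were called. With the barcode as a block 6 of them did not pass: Am28, Am796, Gm1126, Am2281, Cm2337 and Gm2815 (adjusted p from 0.0531 to 0.147). Smaller differences passed at Am2281 (0.0818), Um2417 (0.0708), Cm2337 (0.0707), Am2280 (0.0575) and Gm805 (0.0545), which were named after their values were seen.

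**Figure D2:**
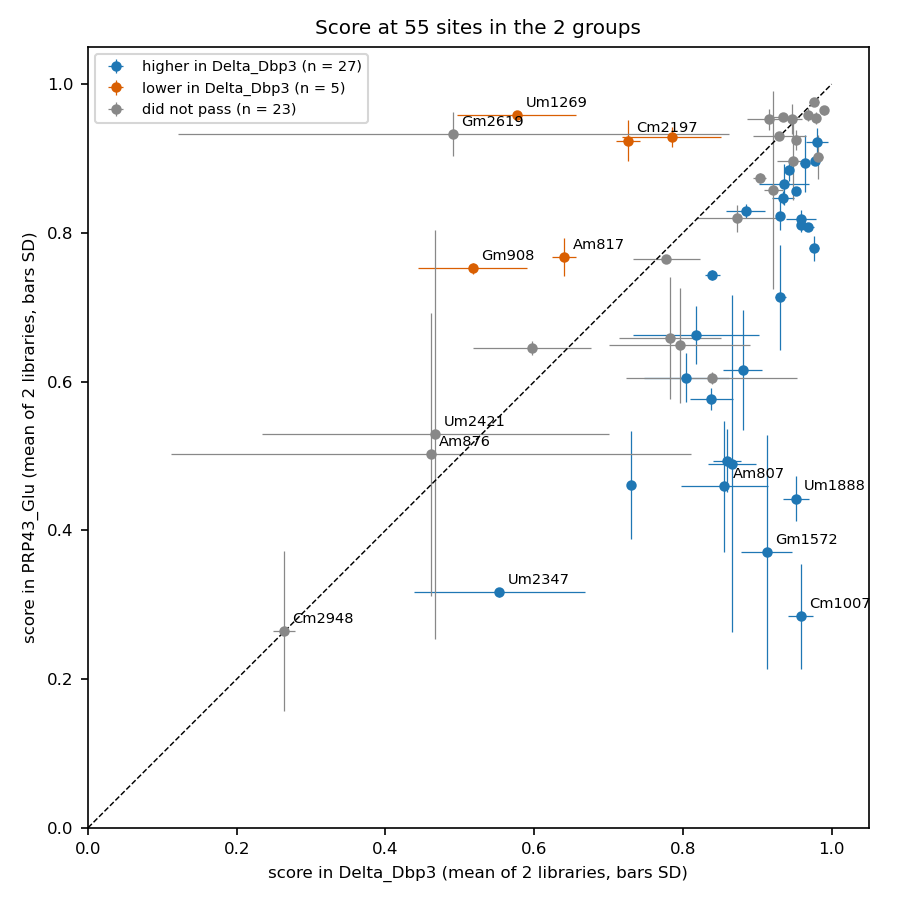
Mean score of the 2 Delta_Dbp3 libraries (x axis) against that of the 2 PRP43_Glu libraries (y axis) at the 55 sites, with SD bars and the line of equal scores dashed. The 27 sites higher in Delta_Dbp3 lie below the line, the 5 lower ones above it, and the longest SD bar, 0.370, belongs to Gm2619 in Delta_Dbp3.

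U18 and U24 are box C/D snoRNAs made from introns, and their 5 sites lie in the 5' part of 25S. All 5 had a higher mean in Delta_Dbp3, as had 40 of all 55 sites, and 3 of the 5 passed, a share near the 58.2% over all sites. Their median difference was 0.147, beside 0.0707 over all sites. Am1449 had 0.731 and 0.729 in Delta_Dbp3 A and B and 0.513 and 0.410 in PRP43_Glu A and B (0.269 ± 0.0338; adjusted p = 0.00206). Cm1437 had 0.859 and 0.818 against 0.587 and 0.566 (0.262 ± 0.0248; adjusted p = 0.00122), and Am649 had 0.847 and 0.833 against 0.739 and 0.748 (0.0960 ± 0.011; adjusted p = 0.00176). With edgeR on read ends Cm1437 passed (adjusted p = 0.0447), and Am1449 and Am649 did not (0.0729 and 0.179). On log2 odds in limma Cm1437 and Am1449 passed, and Am649 did not (adjusted p = 0.127). All 5 were below 0.9 in each of the 4 libraries, so incomplete methylation was common to both groups here. Cm650 (0.863 and 0.729 against 0.703 and 0.594; adjusted p = 0.0712) and Gm1450 (0.734 and 0.831 against 0.717 and 0.601; adjusted p = 0.0953) did not overlap between groups and did not pass.

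At 5 sites Delta_Dbp3 was lower. Um1269 in 18S, guided by snR55, had 0.633 and 0.520 in Delta_Dbp3 A and B and 0.961 and 0.956 in PRP43_Glu A and B. The difference was -0.382 ± 0.0374 (adjusted p = 0.00122), and both PRP43_Glu libraries lay between the means of the control groups (0.974 ± 0.0128 in WT and 0.942 ± 0.0119 in PRP43_Gal). Gm1271, which lies 2 nt away and is guided by snR40, was above 0.9 in all 4 libraries and differed by -0.00689.

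The 2 targets of snR60 were both lower in Delta_Dbp3. Gm908 had 0.569 and 0.466 in Delta_Dbp3 A and B and 0.757 and 0.747 in PRP43_Glu A and B (-0.235 ± 0.0351; adjusted p = 0.00347). Am817 had 0.652 and 0.629 against 0.749 and 0.786 (-0.127 ± 0.0175; adjusted p = 0.00268). Neither site was complete in any of the 4 libraries, and Delta_Dbp3 was the lower group at each. From 5' ends alone both passed limma's test, with -0.553 at Gm908 and -0.126 at Am817. From 3' ends alone neither did, with -0.0848 at Gm908 (adjusted p = 0.098) and -0.0627 at Am817 (adjusted p = 0.574). With edgeR on read ends neither passed (adjusted p = 0.0729 at Gm908 and 0.216 at Am817). Um898, 10 nt from Gm908 and guided by snR40, had 0.541 and 0.653 against 0.638 and 0.652, and overlapped between groups.

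Cm2197, guided by snR76, had 0.737 and 0.715 in Delta_Dbp3 A and B and 0.905 and 0.943 in PRP43_Glu A and B (-0.198 ± 0.0382; adjusted p = 0.00864). Um2724, a target of snR67, had 0.832 and 0.738 against 0.938 and 0.920 (-0.144 ± 0.0345; adjusted p = 0.0181). Gm2619 is the other target of snR67 and had the largest difference that did not pass the main test, -0.442 (95% interval -0.861 to -0.0222; adjusted p = 0.0685). It passed on log2 odds in limma (adjusted p = 0.0142) and with edgeR on read ends (adjusted p = 0.00401), but from neither end alone. Its scores of 0.753 and 0.229 in Delta_Dbp3 A and B lay below 0.912 and 0.954 in PRP43_Glu A and B, so its direction was the same in every library and its size rested on replicate B. Together with Um1269 these 3 are the 4 sites that were above 0.9 in both PRP43_Glu libraries and below 0.9 in both Delta_Dbp3 libraries.

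Among the 23 sites that did not pass, 2 kinds stood out. At 9 sites all 4 libraries were above 0.9, and Am2280 was the one of them that passed. Um2921, a target of snR52 in the region of the peptidyl transferase centre, is among the 9 and had 0.9898 ± 0.000618 and 0.965 ± 0.00584. Its neighbour Gm2922, methylated by the protein Spb1, is not, with 0.881 in PRP43_Glu B. The means at Gm2922 were 0.982 ± 0.00636 and 0.902 ± 0.0299. Both were higher in each Delta_Dbp3 library and neither passed the main test (adjusted p = 0.0722 and 0.14). On log2 odds both passed in limma (adjusted p = 0.00765 and 0.0144), as they did with edgeR on read ends (adjusted p = 0.00191 and 0.00854). The other kind was well below complete in both groups. Cm2948, guided by snR69, had 0.253 and 0.274 in Delta_Dbp3 A and B and 0.188 and 0.341 in PRP43_Glu A and B, the lowest group means of any site, and its difference of -0.00115 had a 95% interval of -0.153 to 0.150. Cm2959, guided by snR73, had 0.746 and 0.809 against 0.767 and 0.762, with a difference of 0.0132 and an interval of -0.0718 to 0.0983. At both sites each group was below its own control (adjusted p from 0.00272 to 0.0314), though for PRP43_Glu that control also differs in medium. No difference between the 2 groups was detected there with both ends together. From 5' ends alone Cm2948 was lower in Delta_Dbp3 (-0.164; adjusted p = 0.0135), and from 3' ends its difference was 0.339 and did not pass (adjusted p = 0.0756). Am2946, 2 nt from Cm2948, was above 0.97 in all 4 libraries. Cm414, guided by U14, had 0.757 and 0.920 against 0.610 and 0.599 and missed the threshold (0.234; adjusted p = 0.0639).

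Each group was then taken against its own control, since the direct difference also holds the difference between the strains. PRP43_Glu and PRP43_Gal differ by label in carbon source as well, so the change between them holds medium and shut-off together. These cannot be told apart, and the difference of changes holds them too. The change from WT to Delta_Dbp3 and the change from PRP43_Gal to PRP43_Glu differed at 23 sites (41.8%), 19 with the larger fall in PRP43_Glu (34.5%) and 4 with the larger fall in Delta_Dbp3 (7.27%). All 23 were among the 32 direct calls and had the same sign there, but the 2 tests share the Delta_Dbp3 and PRP43_Glu libraries. The 9 direct calls that did not pass this test were Am100, Am619, Gm1126, Gm805, Cm2197, Am2280, Am2281, Cm2337 and Um2417. On log2 odds, and likewise with edgeR on read ends, 7 sites passed, 4 with the larger fall in PRP43_Glu and 3 with the larger fall in Delta_Dbp3, and without WT replicate B 14 passed.

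Delta_Dbp3 differed from WT at 11 sites (20%) and PRP43_Glu from PRP43_Gal at 30 (54.5%). Of the 27 sites higher in Delta_Dbp3, 17 had fallen in PRP43_Glu against PRP43_Gal with no call in Delta_Dbp3 against WT. Cm1007 is the clearest of them, with a change of -0.00165 in Delta_Dbp3 and -0.687 in PRP43_Glu. At 5 sites both groups had fallen from their own controls, and PRP43_Glu was the lower one: Am649, Gm805, Gm867, Cm1437 and Am1449. At the last 5, Am619, Am2280, Am2281, Cm2337 and Um2417, neither change passed. Of the 5 sites lower in Delta_Dbp3, Um1269 and Um2724 had fallen from WT only, by 0.397 and by 0.195, Am817 and Gm908 had fallen in both, and Cm2197 in neither (adjusted p = 0.0559 in Delta_Dbp3). At the called sites the median of WT minus PRP43_Gal in the direction of the direct difference was 0.0143, beside a median direct difference of 0.179. It reached 0.1 in that direction at 2 of the 32. These were Am619 (0.289, beside a direct 0.376) and Cm2337 (0.103, beside a direct 0.0707). At Cm2337 the difference of changes had the opposite sign, -0.0322, and did not pass in limma (adjusted p = 0.471). Against the direct difference, WT minus PRP43_Gal was -0.126 at Um2347 and -0.083 at Am436.

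**Figure D3:**
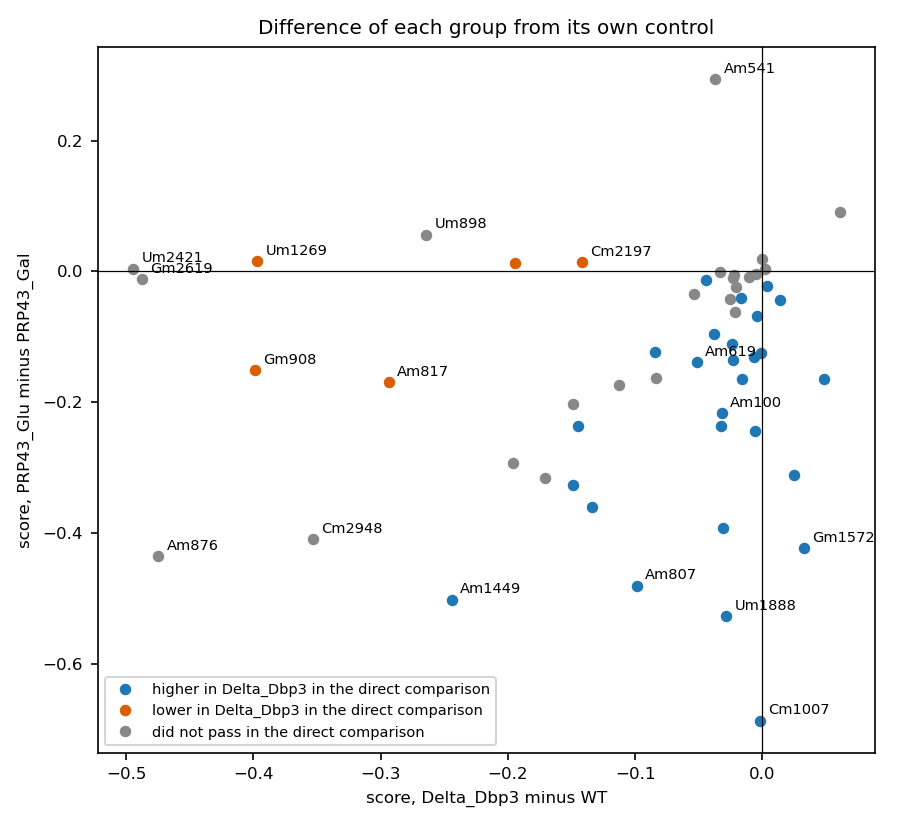
Change of each site in Delta_Dbp3 from WT (x axis) against its change in PRP43_Glu from PRP43_Gal (y axis), in units of the score, with colours from the direct comparison. Cm1007, Um1888 and Gm1572 lie far down near a change of 0 in Delta_Dbp3, Um1269 lies to the left at 0.016 on the y axis, and Cm2948 and Am876 lie low on both axes.

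The calls were spread over both rRNAs and over guides of several kinds. Up to the midpoint of 25S, 7 of 14 sites were higher in Delta_Dbp3 and 2 lower, with a median difference of 0.110, and past it 12 of 23 were higher and 2 lower, with a median of 0.0707. Of 32 sites with another annotated site within 12 nt, 14 were higher and 4 lower, with a median of 0.0641. Among the 23 isolated sites 13 were higher and 1 lower, with a median of 0.0870. For intron-encoded guides the counts were 5 higher and 0 lower of 8, with a median of 0.135. For guides from polycistronic clusters they were 6 higher and 3 lower of 19, with a median of 0.00889. For guides with several targets they were 12 higher and 3 lower of 23, with a median of 0.0870. By base, 12 of 20 A sites were higher and 1 lower, 4 of 10 C sites higher and 1 lower, 7 of 15 G sites higher and 1 lower, and 4 of 10 U sites higher and 2 lower. These are counts to be read beside 27 higher and 5 lower of 55, and no list was tested.

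Of 11 guides with several targets here, 10 had the same sign at all of them, some with values near 0 that did not pass, such as snR40 (-0.00689 at Gm1271 and -0.0482 at Um898). Since 40 of all 55 sites had a positive difference, sites with unlike guides often share a sign too, and guide sharing was not tested. All targets passed for 5 guides: snR13, snR47, snR48 and snR51 with every target higher in Delta_Dbp3, and snR60 with both lower. Sizes differed within a guide, as at the snR47 targets Am619 (0.376) and Am2220 (0.148). The guide with unlike signs was snR41, with -0.0377 at Am541, which did not pass, and 0.0870 at Gm1126. Targets of a guide share the snoRNA and are not separate observations of it.

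Sites close together in the rRNA could go opposite ways. Am807 was higher in Delta_Dbp3 by 0.397 and Am817, 10 nt downstream, was lower (-0.127). Um2724 was lower (-0.144) and Um2729, 5 nt downstream, was higher by 0.140. Since the score at a site uses 6 neighbours on each side, annotated sites were also left out of the neighbours. The 4 differences became 0.372, -0.127, -0.138 and 0.127. Am807 and Am817, 10 nt apart, are not among each other's neighbours, so leaving sites out cannot test that pair. It bears on Um2724 and Um2729 only. All 4 passed in both settings with both ends together, and none of them passed from 3' ends alone.

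**Figure D4:**
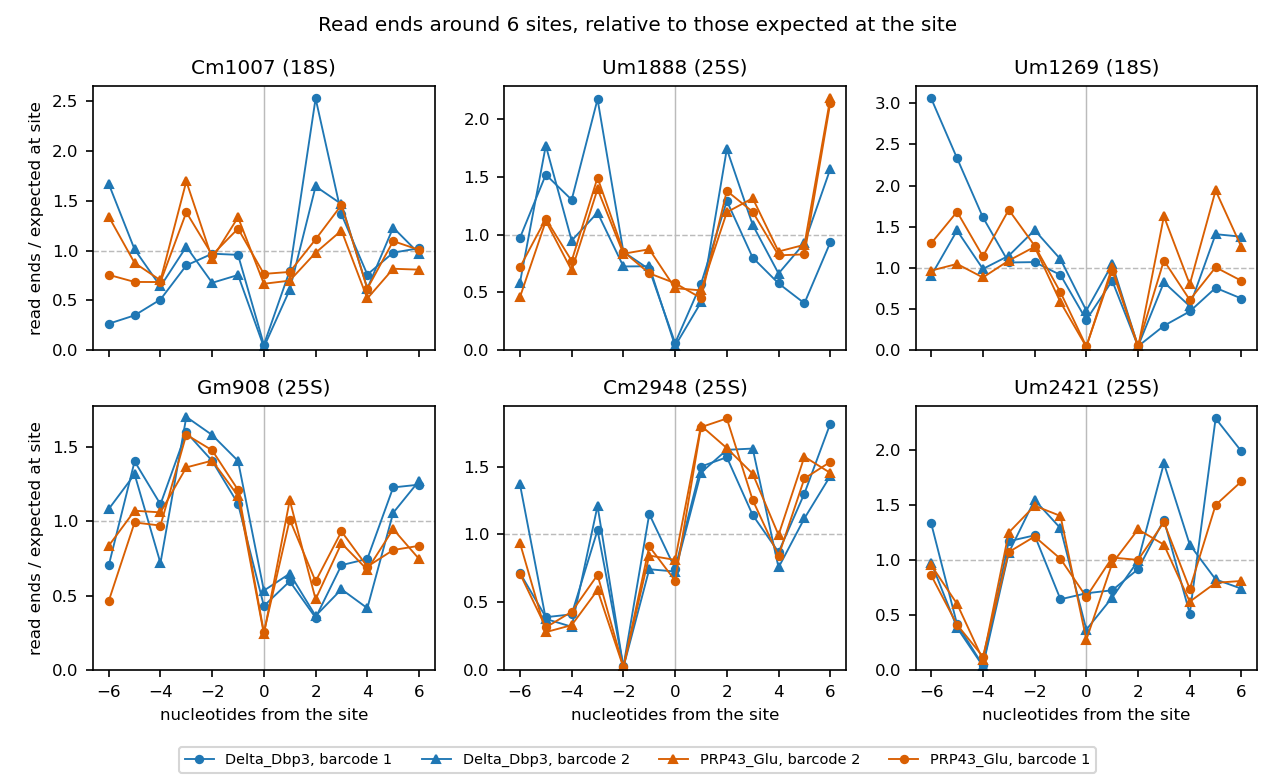
Read ends at each nucleotide from 6 before to 6 after a site, divided by the read ends expected at the site (y axis), in the 4 libraries for 6 sites. At Cm1007 and Um1888 the PRP43_Glu lines stay above 0.5 at position 0 where Delta_Dbp3 drops to 0.0608 or less, at Um1269 and Gm908 Delta_Dbp3 stays higher, at Cm2948 the lines lie together, and at Um2421 they pair by barcode.

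Both groups carry the same barcodes, so the difference between libraries of unlike barcode could be set side by side in both, and what lies behind it was not tested. The difference between barcode 1 and barcode 2 correlated between the groups across sites with r = 0.438 and rho = 0.237 (n = 55 sites, which share libraries), and 31 of 55 had the same sign. Outside the annotated sites r was 0.478 and rho 0.469 for log2 ratios of observed to expected read ends (n = 5117 nucleotides), and 3407 had the same sign. There, libraries of different groups with the same barcode correlated at 0.538 and 0.560, and libraries of different groups and barcodes at 0.373 and 0.429. Duplicates of a group correlated at 0.611 in Delta_Dbp3 and 0.760 in PRP43_Glu.

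Um2421 and Am876 followed the barcode by more than 0.1 in both groups. Um2421, guided by snR78, had 0.302 and 0.335 with barcode 1 (Delta_Dbp3 A and PRP43_Glu B) and 0.632 and 0.724 with barcode 2. Am876, guided by snR72, had 0.708 and 0.637 with barcode 1 and 0.214 and 0.367 with barcode 2. At each, libraries with the same barcode were nearer to each other than duplicates of a group, and neither site passed (differences of -0.0623 and -0.0409). From 5' ends alone Um2421 was above 0.91 in all 4 libraries, with 0.989 and 0.9746 in Delta_Dbp3 A and B and 0.927 and 0.918 in PRP43_Glu A and B, and that difference of 0.0594 passed (adjusted p = 0.0111). From 3' ends alone it ran from 0.0779 to 0.537. The authors' table uses the score from 5' ends for PRP43_Glu B at Um2421 and, of the groups compared, at Gm562 in PRP43_Glu B and Am876 in PRP43_Glu A, and for no Delta_Dbp3 library. With those values Um2421 differed by -0.354 and passed, and 33 sites passed in all.

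Within each barcode 1 Delta_Dbp3 library stands against 1 PRP43_Glu library. All 32 called sites had the same sign within both barcodes, as did 47 of all 55. At the called sites this follows from the groups not overlapping there, so it is no further check of the calls. At Cm1007 the difference was 0.712 with barcode 1 and 0.636 with barcode 2, at Um1888 it was 0.518 and 0.501, and at Um1269 it was -0.322 and -0.441. The 13 calls lost with the barcode as a block were Am28, Am619, Am796, Gm1126, Am649, Gm805, Am2280, Am2281, Cm2337, Um2347, Um2417, Um2724 and Gm2815, with adjusted p between 0.0531 and 0.197. Cm414 and Gm1450 passed there in addition (adjusted p = 0.0461 and 0.0366).

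**Figure D5:**
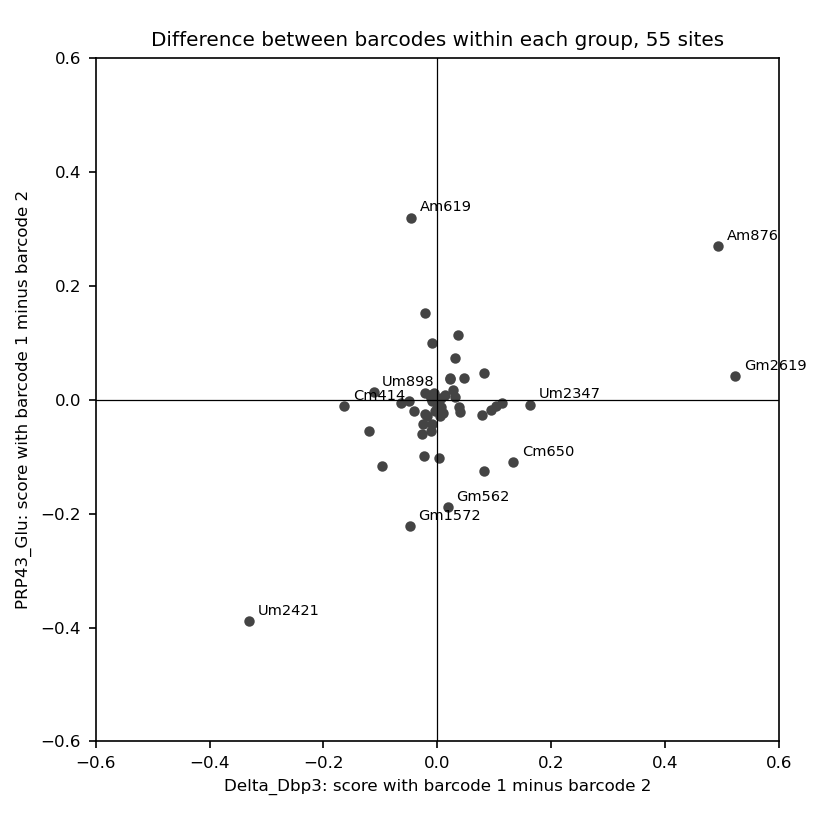
Score with barcode 1 minus score with barcode 2 in Delta_Dbp3 (x axis) and in PRP43_Glu (y axis) at the 55 sites. Am876 and Um2421 lie far from 0 with the same sign on both axes, while Gm2619 differs between barcodes in Delta_Dbp3 and Am619 and Gm1572 in PRP43_Glu.

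The 5' and the 3' ends of fragments give separate readings of each site. Of the 32 called sites, 12 also passed from either end alone, Cm1007, Gm1572, Um1888 and Um1269 among them. A further 9 passed from 5' ends only, 5 from 3' ends only, and 6 from neither: Am28, Gm867, Am2281, Cm2337, Um2347 and Um2724. Of the sites lower in Delta_Dbp3, only Um1269 passed from 3' ends alone. Over all 55 sites, 25 passed from 5' ends alone and 18 from 3' ends alone. The called score sums both ends, so the calls are not independent of either reading. The sign was the same from both ends at 31 of the 32 called sites. The exception was Cm2197, where 5' ends gave 0.646 and 0.612 in Delta_Dbp3 A and B against 0.901 and 0.957 in PRP43_Glu A and B, and 3' ends gave 0.969 and 0.948 against 0.908 and 0.926. At Um1269 5' ends gave a difference of -0.185 and 3' ends one of -0.641.

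The same comparison was run at nucleotides with no annotated methylation to see how often the measure moves there. In the scan of read ends with edgeR (nucleotides averaging 50 read ends or more, called at an adjusted p of 0.05 when scores also differed by 0.1 or more), 94 of 5117 nucleotides differed (1.84%), beside 12 of the 50 annotated sites with enough read ends (24%). Of those 12, 11 were limma calls and the other was Gm2619. On the adjusted p alone, 136 nucleotides outside the sites passed. The score is cut at 0, so a nucleotide scoring 0 in both groups could not reach the minimum difference. This can lower the share outside the sites. Of the 94 called there, 64 had a higher score in Delta_Dbp3 and 30 a lower one. With TMM scaling, which moved the median log2 ratio of read ends from 0.14 to -0.0132, the split was 46 and 60. The count rested on single libraries: it was 1 and 2 without PRP43_Glu A or B, 47 and 393 without Delta_Dbp3 A or B, 24 and 25 without PRP43_Gal A or B, and 0 with only the 4 libraries compared. By base, 23 of 998 C nucleotides were higher in Delta_Dbp3 and 0 lower, against 7 higher and 10 lower of 1357 A nucleotides, and the median log2 ratio of read ends, PRP43_Glu over Delta_Dbp3, was 0.398 for C, 0.247 for U, 0.107 for G and -0.120 for A.

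Differences outside the sites reached 0.881, and the controls of the groups mostly differed there in the same direction. C1787 of 18S had 0.954 and 0.880 in Delta_Dbp3 A and B and 0 and 0.072 in PRP43_Glu A and B, with means of 0.669 in WT and 0.456 in PRP43_Gal. U289 of 18S had 0.850 and 0.818 against 0 in both PRP43_Glu libraries, with 0.703 in WT and 0 in PRP43_Gal. U932 of 25S had 0.772 and 0.830 against 0.121 and 0, with 0.790 in WT and 0.238 in PRP43_Gal. At all 3 WT was above PRP43_Gal too. In 25S, U1124, C3204, G2823 and U2578 and, in 18S, C1374 were also higher in Delta_Dbp3, by 0.651 to 0.716, and A678 of 18S (-0.651) and G2863 of 25S (-0.640) were lower. Of the 94, 87 had WT minus PRP43_Gal of the same sign as the direct difference, 79 of them by at least 0.1, and its median in that direction was 0.261 beside a median direct difference of 0.484. At the 32 called sites, 22 had the same sign, 2 of them by at least 0.1. No nucleotide outside the annotated sites is called methylated here.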

How the data were processed

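RiboMeth-seq libraries of yeast whole cell RNA were made from alkaline fragments of 20 to 40 nt and sequenced on the Ion Proton platform, per the labels' protocols. Tools in the submitters' processing notes are cutadapt 2.0 and Bowtie2 2.3.4.1. For mapping settings, reference build and filters, the sources used here say nothing. Per the file headers, the authors deposited read-end counts (5' ends, 3' ends and their sum) for each nucleotide and library. The authors' score, headed as a percentage and deposited as a fraction, is 1 minus the observed over the expected read ends, the latter averaging both sides' weighted means of 6 neighbours (weights 1 to 0.5). Scores recomputed from the counts differed from the deposited ones by at most 5.0e-10 over 41376 values. Groups follow the labels. The genes and 55 sites are those of the authors' overview.

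Scores without the authors' barcode correction were compared with limma 3.58.1 (R 4.3.3) in 1 fit of all 8 libraries with empirical Bayes moderation (prior degrees of freedom 1.13, residual 4) and Benjamini-Hochberg adjustment over the 55 sites at 0.05. The contrasts were Delta_Dbp3 minus PRP43_Glu and the difference of each group's change from its own control. The scan used edgeR 4.0.16, quasi-likelihood, on read-end sums, the expected number being the offset. Tables and figures were made in Python 3.11.15. Both procedures were tested on simulated data. Intervals are 95%, and counting errors cover counting alone.

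Named sites are the 25 largest passing differences, the 5 largest that did not pass, the U18 and U24 sites, Um2921, Gm2922 and every site that did not pass with a mean under 0.8 in both groups, and at most 10 nucleotides of the scan. The libraries, lists and tests were chosen with earlier results of these data known. Guide assignments are general knowledge found in neither labels nor tables. Pairing was checked through the barcode difference, which correlated between the groups with r of 0.438 and rho of 0.237 at the sites and had the same sign at 31 of 55. Pairing by letter turns the sign of r by construction. No label says that letters pair cultures. Alternatives were log2 odds (scores limited to 0.01 to 0.99), only the libraries compared, blocks by letter or barcode, other moderation, a minimum difference of 0.1, edgeR at the sites, 2 neighbours, annotated neighbours left out, 5' or 3' ends alone, the authors' correction, a minimum of 100 expected read ends, and leaving out each library. For the scan they were TMM, other minimums of read ends, limma on log2 ratios, 2 neighbours, blocks, and each library left out, the barcode block being chosen after seeing the data.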

Additional observations from a re-analysis of the deposited data

Results flagged for a closer look

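At 23 of the 55 sites the change from WT to Delta_Dbp3 differed from the change from PRP43_Gal to PRP43_Glu in limma's test of that difference, with adjusted p between 0.000437 and 0.047. The value given for each site is the change in Delta_Dbp3 minus the change in PRP43_Glu, in units of the score, so a positive value means a larger fall in PRP43_Glu. In 18S it was 0.685 at Cm1007, 0.456 at Gm1572, 0.238 at Am436, 0.112 at Am796 and 0.0583 at Am28, and -0.413 at Um1269. In 25S it was 0.499 at Um1888, 0.382 at Am807, 0.362 at Um2347, 0.336 at Cm663, 0.258 at Am1449, 0.227 at Cm1437, 0.213 at Gm2791 and 0.204 at Am2640. It was 0.179 at Gm867, 0.149 at Am2220, 0.125 at Gm2793, 0.124 at Um2729, 0.0917 at Am649 and 0.0869 at Gm2815. The larger fall was in Delta_Dbp3 at Gm908 (-0.248), Um2724 (-0.207) and Am817 (-0.124). The standard errors ran from 0.0139 at Gm2815 to 0.136 at Gm1572. At Um2347 the controls differed in the other direction from the helicase groups, with 0.584 ± 0.0289 in WT and 0.710 ± 0.0787 in PRP43_Gal (SD, n = 2), and the difference of changes there is larger than the direct difference of 0.236.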

How the results depend on the processing

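The count of 32 sites lay between 23 and 38 under the other alternatives except that it was 21 with the barcode as a replicate block and 18 from 3' ends alone. Leaving out 1 library gave 25 (without either WT library) to 30 sites, and 23 of the 32 calls held without each of the 8 libraries in turn. The other 9 were lost without at least 1: Am436, Am619, Gm805, Am2280, Am2281, Cm2337, Um2347, Um2417 and Um2724. Calls kept in all 21 alternatives were Am100, Cm1007, Um1269, Gm1572, Um1888, Am2220, Am2640, Gm2791 and Gm2793. With the letter as a block 31 sites passed, 29 of them shared with the 32, and Am436, Cm2337 and Um2417 were lost. The difference of changes passed at 23 sites, at 7 on log2 odds, at 7 with edgeR, at 11 from 3' ends and at 14 (without WT replicate B) to 21 with a library left out, and no fit with only the groups compared or with the barcode block could be made for it, since the controls carry barcodes of their own. A minimum of 100 expected read ends removed no site.

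Direction turned at Gm805 with 2 neighbours (-0.0456) and at Cm2197 from 3' ends (0.0413). At sites without a call it turned for Am876 from 3' ends (0.0332), for Um898 from 5' ends (0.0617), and for Um2421 from 5' ends (0.0594) and 3' ends (0.0615). Cm2948 turned on log2 odds (0.0455), with annotated neighbours left out (0.00963) and from 3' ends (0.339), and Cm2959 with 2 neighbours (-0.0621), from 5' ends (-0.0454) and from 3' ends (-0.0136). With a library left out the differences ran from -0.288 to 0.206 at Am876, from -0.104 to 0.00756 at Um898, from -0.257 to 0.132 at Um2421, from -0.0775 to 0.0752 at Cm2948 and from -0.0184 to 0.0449 at Cm2959. The cause of these turns was not tested.

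Outside the sites, 94 nucleotides became 190 with 2 neighbours, 62 with the letter as a replicate block, 284 with the barcode as a replicate block, 0 with only the libraries compared, and 1 (without PRP43_Glu replicate A) to 393 (without Delta_Dbp3 replicate B) with a library left out. In the edgeR fit that gave 0, with 4 libraries alone, 768 nucleotides had an unadjusted p under 0.05 with a score difference of at least 0.1, beside 858 with all libraries. Counts of read ends at a site ran from 9 to 1461 in Delta_Dbp3 and from 17 to 1575 in PRP43_Glu, and the median gap between duplicates was larger than the median counting error.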
